A study of Mus musculus with 5 samples.

Results

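The 41 genes described here encode the proteins that mark replication origins, load and start the replicative helicase, and copy DNA at the fork. They were chosen by name, as the rows of the count tables whose symbol is on a list of replication licensing and fork genes. All 41 were found among the 23284 gene symbols of the tables, and all 41 were expressed highly enough to be tested, out of 12703 genes tested. RNA with a polyA tail had been sequenced from the neural tubes of 5 mouse samples to ask what the loss of the erythropoietin receptor, EpoR, changes in uncultured neural progenitor cells. EpoR-null samples (EpoR -/-, 2 samples) were compared with littermate controls, which were wild type (EpoR +/+, 2 samples) and heterozygous (EpoR +/-, 1 sample). The deletion is carried by every cell of the embryo and the mothers were themselves heterozygous, so blood, vessels and neural tissue lack the receptor alike in an EpoR-null embryo. No sample was treated with any agent. The age is E8.5 in the labels but E9.0 in the study's text, and neither source says whether a sample was a single embryo or a pool. The p-values below set the difference between groups against the variation of samples within a group, estimated with help from all genes. They refer to these 5 samples and not to a known number of embryos, with wild type and heterozygote as a single control group.

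Replication is licensed when the origin recognition complex, with Cdc6 and Cdt1, places the ring-shaped MCM2 to MCM7 helicase on DNA, and geminin blocks Cdt1 so that an origin fires only once in a cell cycle. Mcm10 and the GINS complex then help turn the loaded ring into a moving helicase, polymerase alpha-primase starts each strand, polymerases epsilon and delta extend them, and the clamp PCNA, its loader RFC, the single-strand binding protein RPA, the nuclease Fen1 and DNA ligase I complete the work. Most of these genes are transcribed before and during S phase under E2F factors, and the neural tube of this stage is a dividing epithelium rich in cells in S phase.

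Depth ranged from 19316126 to 41169218 reads on genes per sample, and the least covered member, Gins3, still had 644 reads in its poorest sample. Values are CPM, the reads of a gene scaled to the reads on all genes of its sample with TMM normalization, and are listed in the order wild type 1, wild type 2 and heterozygote for the controls, then EpoR-null 1 and EpoR-null 2. Epor itself had few reads everywhere, at 2.35, 1.62 and 0.475 CPM in the controls and 0.353 and 0.668 CPM in the EpoR-null samples. Its log2 fold change of -1.51 (SE 0.76) did not pass the test (edgeR exact test, FDR 0.28), and the heterozygote lay between the EpoR-null samples, so Epor reads separate the wild type samples but not the heterozygote from EpoR-null. The 10 markers of neural progenitors were above 1 CPM in all 5 samples, at summed levels of 2922, 3043 and 3221 CPM in the controls and 3412 and 2627 CPM in the EpoR-null samples. Markers of other cell types were also present and uneven. The 8 endothelial markers summed to 197, 317 and 13.1 CPM in the controls and 279 and 160 CPM in the EpoR-null samples, and the 7 primitive erythroid markers to 1091, 603 and 44.1 CPM against 1692 and 965 CPM. The heterozygote was the sample lowest in both. The 10 tested newborn neuron markers summed to 510, 368 and 608 CPM in the controls and to 1187 and 277 CPM in EpoR-null 1 and EpoR-null 2. Mesoderm markers, 8 of 10 tested, lay between 11.4 CPM in the heterozygote and 157.6 CPM in EpoR-null 1. The 7 neural crest markers ran from 45.9 to 187 CPM between the same samples. In surface ectoderm the defining markers Epcam, Cdh1, Trp63 and Grhl2 were too low to be tested, and the list of 6 summed to between 5.44 and 29.8 CPM. In bulk RNA of this kind, fewer cells of a type and less RNA per cell cannot be told apart. The part of these markers in the results below was not tested.

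E2F sites in the promoters are shown because they are what many of these genes are known to share. RefSeq promoter windows of build GRCm38.p6, from 250 bases before to 50 bases after a start site, were found for 33 of the 41 genes, and 41 windows covered them. The motif was searched on both strands as TTTCCCGC, TTTCGCGC, TTTGCCGC and TTTGGCGC. It stood in 14 of the 41 windows (34.15%), which belong to 14 genes, against 744 of the 32851 windows of all genes (2.265%). The following 30-base stretches lie upstream of the start site and run 5′ to 3′ on the gene's own strand, with the motif in capitals, reversed and complemented where it faces the other way.

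Pola1, chrX:93632275-93632304 (-): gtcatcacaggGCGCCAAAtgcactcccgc
Orc3, chr4:34614965-34614994 (-): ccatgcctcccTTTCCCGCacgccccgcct
Mcm5, chr8:75109345-75109374 (+): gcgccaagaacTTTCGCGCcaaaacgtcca
Mcm6, chr1:128359797-128359826 (-): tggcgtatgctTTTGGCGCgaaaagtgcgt

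The motif centre was 134 bases from the start site in Pola1, 37 in Orc3, 149 in Mcm5 and 106 in Mcm6. In Mcm5 and Mcm6 the stretch holds a further match on the opposite strand that shares the central letters with the capitals. Of the 3 changed genes below, 2 had a window, and 1 of these, that of Pola1, held the motif. A match in these letters is a description of the window and was not tied to binding in these samples.

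EpoR-null and control neural tubes differed little in the replication genes when each group was taken as a whole. Pola1, Pole and Rfc1, the large subunits of polymerase alpha, polymerase epsilon and the clamp loader, were lower in EpoR-null samples, and no member was called higher. These 3 of 41 genes (7.32%) passed an FDR of 0.05 in the edgeR exact test with Benjamini-Hochberg adjustment over all genes, and the same test called 7.31% of all genes tested, with 5.49% lower and 1.81% higher. The share of members called was therefore that of the background. The log2 fold changes ran from -0.52 to 0.46 with a median of 0.09, against 0.06 over all genes tested. Of the members 28 (68.3%) were positive, against 56.2% of all genes, and 13 were negative. For 26 of the 41 members the 95% interval of the fold change lay within 1.5-fold in either direction. Both EpoR-null samples were below all 3 controls in 3 members, the called genes, where the background is 22.1%. They were above all controls in 6 members, Orc6, Gmnn, Gins4, Rfc2, Rpa2 and Rpa3, where the background is 21.2%. In the remaining 32 members the groups overlapped. Pola1 and Pole also met the stricter pair of thresholds used in the study, p under 0.001 and FDR under 0.05, which 4.77% of all genes met. At an unadjusted p under 0.05 the exact test listed 6 members, the called 3 and, at higher values, Orc6, Rfc2 and Rpa3, with a background of 19.8% in either direction and 7.88% at higher values.

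The calls rest on few samples and on the form of the test. The quasi-likelihood F-test of edgeR called 0 members and 0 genes in all at FDR 0.05, and at FDR 0.1 it called 4 members, against 8.05% of all genes. With the replicate number as a block that test called 1 member at FDR 0.05, Pola1, and 5.47% of all genes. Leaving out wild type 1 or the heterozygote left 0 members called, against 115 and 253 genes in all. Leaving out wild type 2 left 1 member, against 313 genes in all. With 1 EpoR-null sample left out, the other is assumed to vary like the controls, and a call then marks the distance of that single sample from the controls. For those fits the effect size alone is given. The median log2 fold change of the members was -0.15 without EpoR-null 2 and 0.28 without EpoR-null 1.

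**Figure D1:**
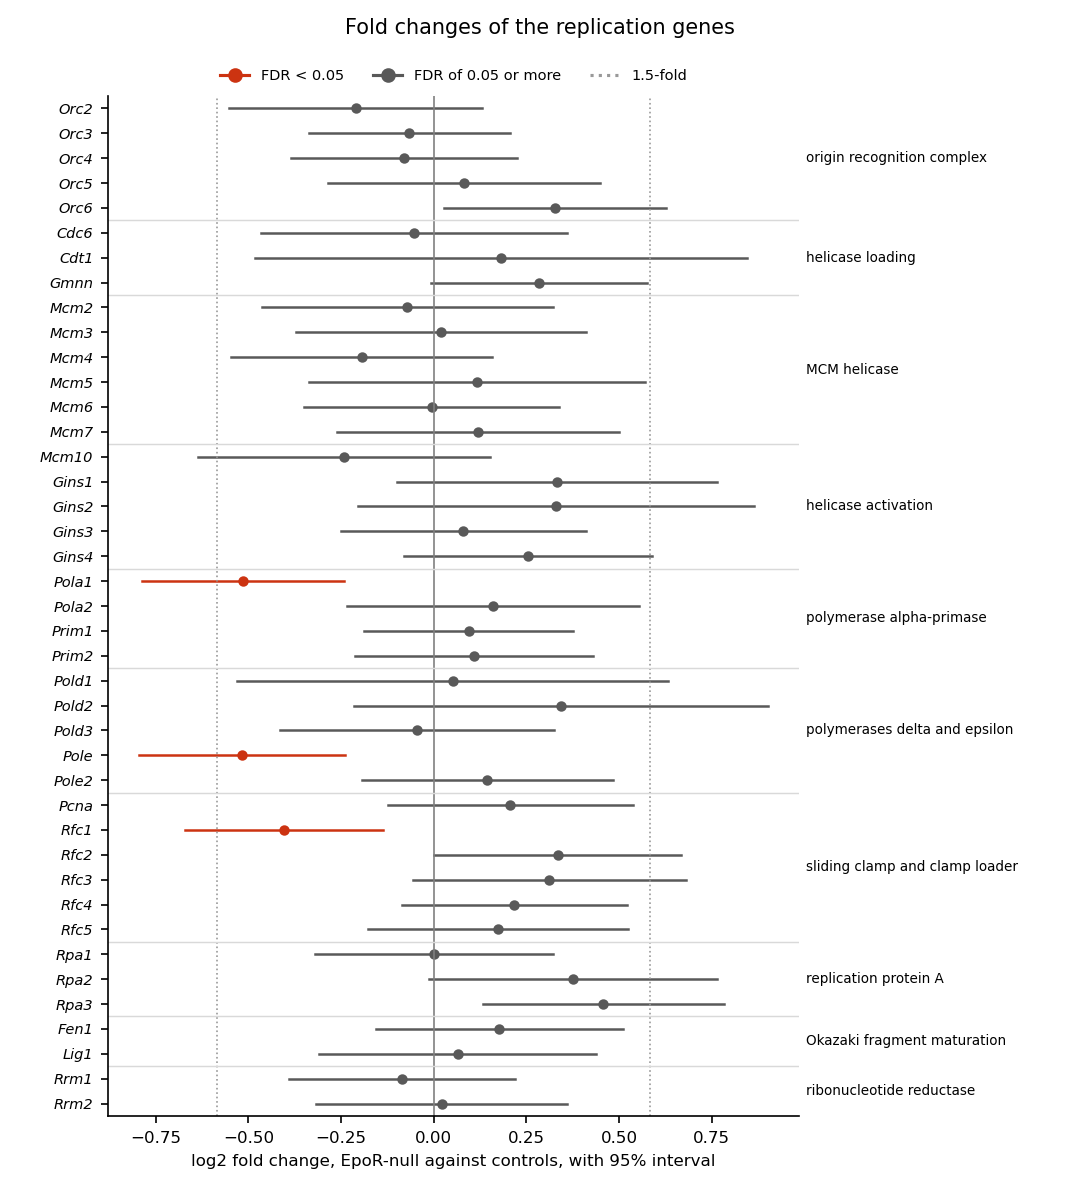
Log2 fold change of each of the 41 genes, EpoR-null (2 samples) against controls (3 samples), with 95% intervals, grouped by role; dotted lines mark 1.5-fold. The red points, Pola1, Pole and Rfc1, have an FDR under 0.05 and intervals that lie below 0, and the other genes scatter around 0 between -0.24 and 0.46.

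The origin recognition complex is the platform on which licensing begins. None of the 5 subunits among the members, Orc2 to Orc6, passed the test. Orc1, read with the further replication genes below, did not pass it either, at a log2 fold change of -0.16 (SE 0.23, exact test FDR 0.748). Orc2 was at 131, 120.4 and 127 CPM in the controls and at 93.2 and 125 CPM in the EpoR-null samples. Its log2 fold change was -0.21 (SE 0.17, FDR 0.544), since EpoR-null 1 lay below every control and EpoR-null 2 among them. Orc6, the smallest subunit, was at 95.9, 98.9 and 104 CPM in the controls and at 112 and 137 CPM in the EpoR-null samples. The groups did not overlap, and the log2 fold change of 0.33 (SE 0.15, exact test FDR 0.19) did not pass the test. Orc3, Orc4 and Orc5 had log2 fold changes of -0.07, -0.08 and 0.08.

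Helicase loading showed its widest spread in Cdt1, the loading factor that is destroyed once S phase begins. Cdt1 was at 125, 161 and 134 CPM in the controls and at 102 and 216 CPM in the EpoR-null samples. The EpoR-null samples thus held both the lowest and the highest value, and the log2 fold change of 0.18 (SE 0.34, FDR 0.814) had the widest interval of all members, from -0.48 to 0.85. Gmnn, which encodes the Cdt1 inhibitor geminin, was at 85.3, 87.0 and 85.8 CPM in the controls and 94.0 and 115 CPM in the EpoR-null samples. Here the groups did not overlap, with a log2 fold change of 0.28 (SE 0.15, exact test FDR 0.269). Cdc6, the ATPase that brings Cdt1 and the helicase to the origin, had a log2 fold change of -0.05 (SE 0.21).

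The MCM genes encode the ring of the replicative helicase, and none of the 6 passed the test, at log2 fold changes from -0.19 to 0.12. Per kilobase of longest annotated transcript, the control level ran from 135 CPM per kb for Mcm4 to 228 for Mcm7, with Mcm6 at 139, Mcm2 at 141, Mcm3 at 146 and Mcm5 at 169. Mcm4 was at 477, 489 and 487 CPM in the controls and at 360.1 and 486 CPM in the EpoR-null samples. Mcm7 was at 637, 706 and 686 CPM in the controls and at 612 and 858 CPM in the EpoR-null samples. In both genes EpoR-null 1 lay below every control. EpoR-null 2 was among the controls for Mcm4 and above them for Mcm7. The FDR was 0.597 for Mcm4 and 0.78 for Mcm7 in the exact test. For all 6 genes the 95% interval of the fold change stayed within 1.5-fold, from the lowest limit of -0.55 in Mcm4 to the highest of 0.57 in Mcm5. The 6 genes together summed to 3162, 3486 and 3343 CPM in the controls and to 2781 and 3931 CPM in the EpoR-null samples, so the EpoR-null samples enclosed the controls.

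Helicase activation genes were not called either. Mcm10, which acts when the loaded helicase begins to unwind DNA, was at 140.5, 153 and 145 CPM in the controls and at 100.2 and 147 CPM in the EpoR-null samples. Its log2 fold change was -0.24 (SE 0.20, FDR 0.55), and EpoR-null 1 alone was outside the controls. Gins1 was at 40.2, 44.7 and 43.1 CPM in the controls and at 43.2 and 64.1 CPM in the EpoR-null samples. In this gene it was EpoR-null 2 that stood apart, with a log2 fold change of 0.33 (SE 0.22, FDR 0.413). Gins2, Gins3 and Gins4, the remaining GINS subunits, had log2 fold changes of 0.33, 0.08 and 0.25.

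Polymerase alpha-primase makes the RNA-DNA primers of both strands, and its catalytic subunit gene Pola1 (X:93304767-93632155, minus strand, GRCm38) was 1 of the 3 genes that fell. Pola1 was at 124, 117 and 132 CPM in the controls and at 91.1 and 83.0 CPM in the EpoR-null samples. Both EpoR-null values were below every control, with a log2 fold change of -0.52 (SE 0.14, 95% interval -0.79 to -0.24, exact test p 0.000265, FDR 0.00829). The FDR was 0.236 without wild type 1, 0.164 without the heterozygote and 0.0722 in the quasi-likelihood F-test, and 0.0428 when the replicate number was added to that test as a block. As Pola1 lies on chromosome X and the labels give no sex, Xist was read as well. Xist had 15522 reads in the heterozygote and 6210 in EpoR-null 2, and 8, 12 and 2 reads in wild type 1, wild type 2 and EpoR-null 1, the samples that carried reads of 4 Y-linked genes. In the samples with Xist, Pola1 was at 83.0 CPM in EpoR-null 2 and at 132 CPM in the heterozygote. In those without, it was at 91.1 CPM in EpoR-null 1 and at 124 and 117 CPM in the wild type samples. With 1 EpoR-null sample on each side, the part of sex was not tested for Pola1. Its partners did not pass the test: Pola2, the regulatory B subunit, was at 108, 122 and 109 CPM in the controls and at 103 and 149.6 CPM in the EpoR-null samples, and its log2 fold change was 0.16 (SE 0.20, FDR 0.703). Prim1 and Prim2, the primase subunits, had log2 fold changes of 0.09 and 0.11.

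Pole, the catalytic subunit of the leading-strand polymerase epsilon (5:110286306-110337474, plus strand), fell by the same amount. It was at 177, 175 and 185 CPM in the controls and at 116 and 134 CPM in the EpoR-null samples. The groups were well apart, with a log2 fold change of -0.52 (SE 0.14, 95% interval -0.79 to -0.24, exact test p 0.000317, FDR 0.00931). The FDR rose to 0.223 without wild type 1, 0.0988 without wild type 2, 0.132 without the heterozygote, 0.073 in the quasi-likelihood F-test and 0.0526 with the replicate block. Pole2, which binds Pole, was not called, at a log2 fold change of 0.14 (SE 0.17). Pold1, the catalytic subunit of polymerase delta on the lagging strand, was at 160.3, 209 and 164 CPM in the controls and at 130.4 and 238 CPM in the EpoR-null samples. The EpoR-null samples enclosed the controls, and the log2 fold change was 0.05 (SE 0.30, FDR 0.951). The delta subunits Pold2 and Pold3 had log2 fold changes of 0.34 (SE 0.28) and -0.05 (SE 0.19).

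The clamp loader RFC is a ring of a large subunit, Rfc1, and the small subunits Rfc2 to Rfc5, which opens PCNA and closes it around DNA. Rfc1 (5:65261850-65335670, minus strand) was at 210.4, 206 and 221 CPM in the controls and at 153 and 168 CPM in the EpoR-null samples. Both EpoR-null values were below all controls, and the log2 fold change of -0.40 (SE 0.14, 95% interval -0.67 to -0.14, exact test p 0.00344, FDR 0.048) was just inside the threshold. Without wild type 1 the FDR was 0.448, without wild type 2 it was 0.228 and without the heterozygote 0.304. It was 0.0859 in the quasi-likelihood F-test and 0.0646 with the replicate block. The small subunits were not called and had positive log2 fold changes of 0.33 (Rfc2), 0.31 (Rfc3), 0.22 (Rfc4) and 0.17 (Rfc5). Pcna, the clamp, had the highest level of the 41 genes per kilobase in the controls, 447 CPM per kb. It was at 645, 691 and 699 CPM in the controls and at 687 and 878 CPM in the EpoR-null samples, with a log2 fold change of 0.21 (SE 0.17, FDR 0.533). EpoR-null 1 lay among the controls and EpoR-null 2 above them.

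Replication protein A coats the single strand behind the helicase as a trimer. Rpa3, its smallest subunit, had the most positive fold change of the 41 genes and missed the threshold. It was at 35.7, 36.1 and 35.7 CPM in the controls and at 45.1 and 53.2 CPM in the EpoR-null samples. The controls were almost equal and both EpoR-null values were above them, with a log2 fold change of 0.46 (SE 0.17, exact test FDR 0.0667), while DESeq2 gave an FDR of 0.00967 and the quasi-likelihood F-test 0.0904. With the offsets for transcript length and GC content described below, the log2 fold change of Rpa3 was 0.09 (likelihood-ratio test FDR 0.999). Rpa1, the large DNA-binding subunit, was at 244, 265 and 259 CPM in the controls and at 227 and 285 CPM in the EpoR-null samples. Its EpoR-null values again stood on either side of the controls, and its log2 fold change was 0.00 (95% interval -0.32 to 0.32). Rpa2 had a log2 fold change of 0.38 (SE 0.20, FDR 0.27).

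Okazaki fragment processing and nucleotide supply were not called. Fen1, the flap nuclease, was at 148, 165 and 153 CPM in the controls and at 153 and 198 CPM in the EpoR-null samples. Lig1, the ligase that seals the fragments, was at 321, 358 and 347 CPM in the controls and at 299.9 and 416 CPM in the EpoR-null samples. Their log2 fold changes were 0.18 (SE 0.17, FDR 0.608) and 0.06 (SE 0.19, FDR 0.896), with overlapping groups in both. Rrm1, the large subunit of ribonucleotide reductase, which makes deoxynucleotides, was at 480.1, 456 and 489 CPM in the controls and at 491 and 405 CPM in the EpoR-null samples. Rrm2, the small subunit, was at 769, 820.2 and 829.9 CPM in the controls and at 711 and 927 CPM in the EpoR-null samples. The EpoR-null samples lay on either side of the controls in both genes, but in opposite order, and the log2 fold changes were -0.09 (SE 0.16) and 0.02 (SE 0.17).

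The EpoR-null samples did not resemble each other in these genes. EpoR-null 2 was above EpoR-null 1 in 39 of 41 members (95.1%), all but Pola1 and Rrm1, while this held for 49.2% of all genes tested. EpoR-null 1 was below the control mean in 28 members and EpoR-null 2 above it in 35. Of all 12703 genes tested this held for 6269 and 6459. In 15 members (36.6%), 5 of the 6 MCM genes among them, EpoR-null 1 was the lowest and EpoR-null 2 the highest of all 5 samples, with a background of 10.9%. On the log2 scale the median member stood at -0.14 in EpoR-null 1 and at 0.27 in EpoR-null 2 relative to the control mean, and at -0.05, 0.03 and 0.02 in wild type 1, wild type 2 and the heterozygote. The signed gap, EpoR-null 2 minus EpoR-null 1, had a median of 0.40 over the members and -0.01 over all genes, where gaps of either sign cancel. In absolute size the median gap was 0.40 over the members and 0.32 over all genes. The wild type samples differed less but in the same sense, with wild type 2 above wild type 1 in 29 of 41 members (70.7%) and a median difference of 0.08, against 47.3% and -0.01 over all genes. Summed over the 41 genes, the levels were 8606, 9246 and 9094 CPM in the controls and 7928 and 10538 CPM in the EpoR-null samples. The 2 samples differed in other measures as well: the summed newborn neuron markers given above were 1187 CPM in EpoR-null 1 and 277 CPM in EpoR-null 2, with all 10 markers lower in EpoR-null 2, and Xist had 2 reads in EpoR-null 1 and 6210 in EpoR-null 2. Their part in this gap was not tested.

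**Figure D2:**
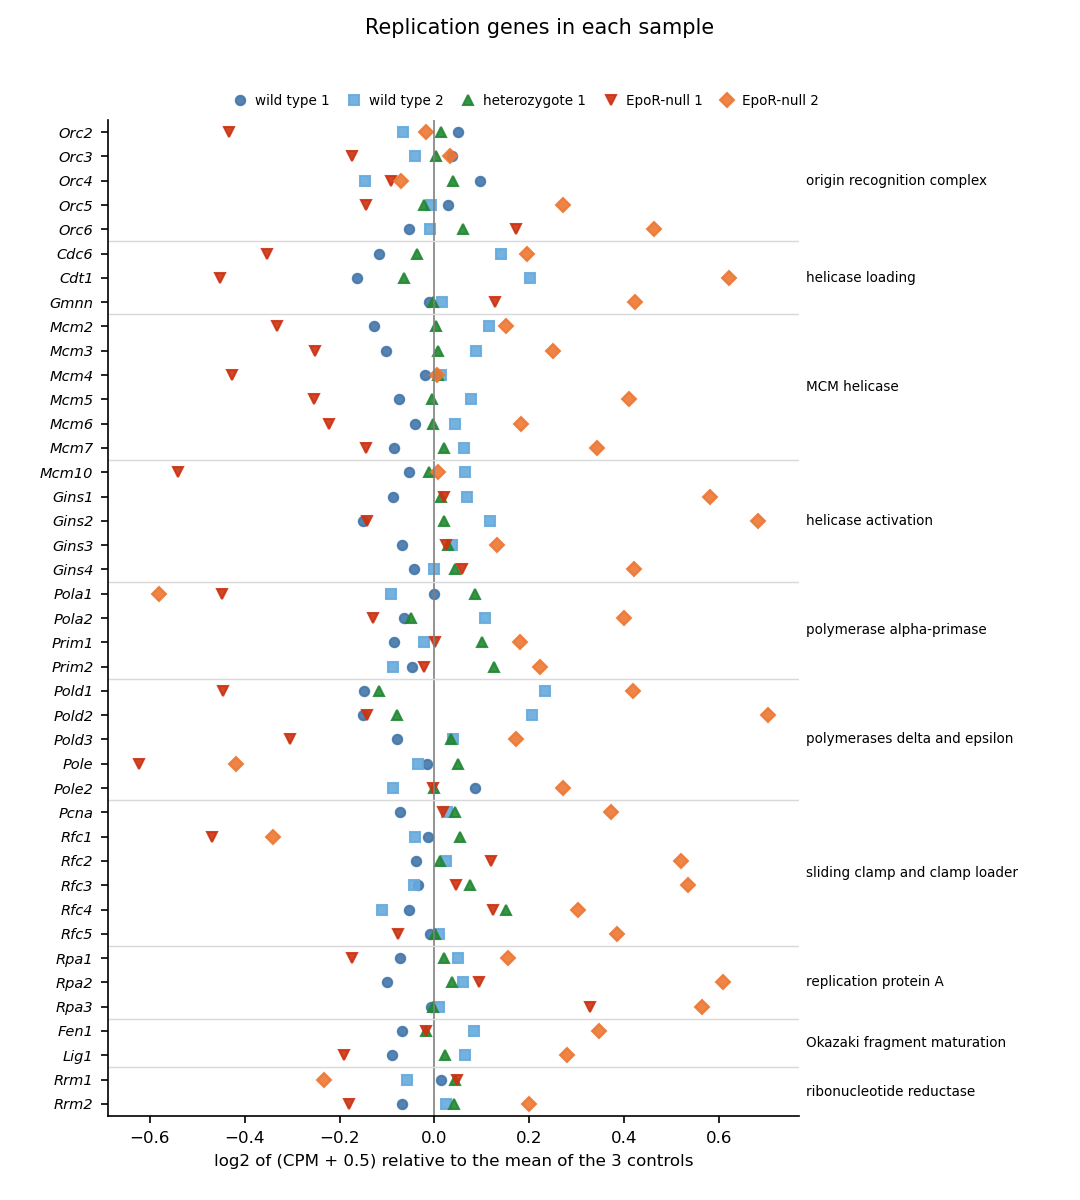
Level of each of the 41 genes in each of the 5 samples, as log2 of CPM plus 0.5 relative to the mean of the 3 controls, grouped by role. EpoR-null 1 lies mostly to the left of 0 and EpoR-null 2 mostly to the right, at medians of -0.14 and 0.27, while Pola1, Pole and Rfc1 have both EpoR-null samples on the left.

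**Figure D3:**
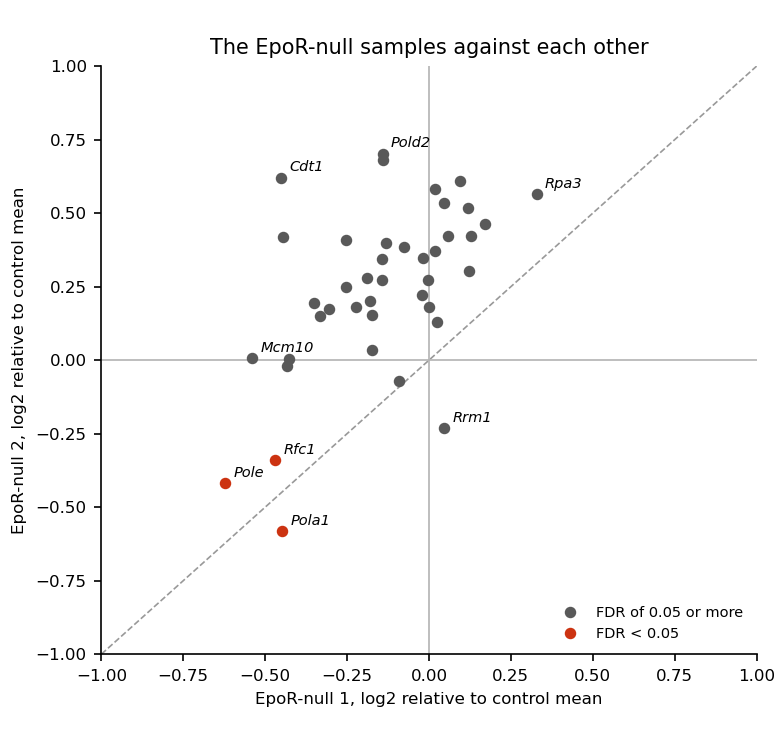
The same log2 values in EpoR-null 1 (horizontal axis) and EpoR-null 2 (vertical axis), 1 point per gene, with the diagonal of equal values. Of the 41 points 39 lie above the diagonal, and the called genes Pola1, Pole and Rfc1 form the group in the lower left.

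Within several complexes the large subunit and its partners parted. The log2 ratio of Pola1 to the mean of Pola2, Prim1 and Prim2 was 0.61, 0.45 and 0.57 in the controls and 0.15 and -0.31 in the EpoR-null samples. That of Pole to Pole2 was 1.88, 2.04 and 2.03 in the controls and 1.36 and 1.29 in the EpoR-null samples. For Rfc1 relative to Rfc2 to Rfc5 the ratio was 1.16, 1.12 and 1.13 in the controls and 0.61 and 0.36 in the EpoR-null samples. In each of these the EpoR-null samples were below every control by more than the spread of the controls, and EpoR-null 1 and EpoR-null 2 shared the direction although their levels differed. The same held for Rpa1 relative to Rpa2 and Rpa3, at 1.81, 1.85 and 1.83 in the controls and 1.44 and 1.39 in the EpoR-null samples, where no subunit alone was called. It did not hold for Pold1 relative to Pold2 and Pold3, at 0.56, 0.70 and 0.49 in the controls and 0.37 and 0.57 in the EpoR-null samples, nor for Rrm1 relative to Rrm2 or Cdt1 relative to Gmnn. These ratios were formed after the fold changes of their members had been seen and carry no test. Not all of them kept their difference when the trend on transcript length and GC content described below was removed. The log2 fold change of the large subunit minus the mean of its partners went from -0.64 to -0.29 for Pola1, from -0.66 to -0.01 for Pole, from -0.66 to -0.43 for Rfc1 and from -0.42 to 0.13 for Rpa1.

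**Figure D4:**
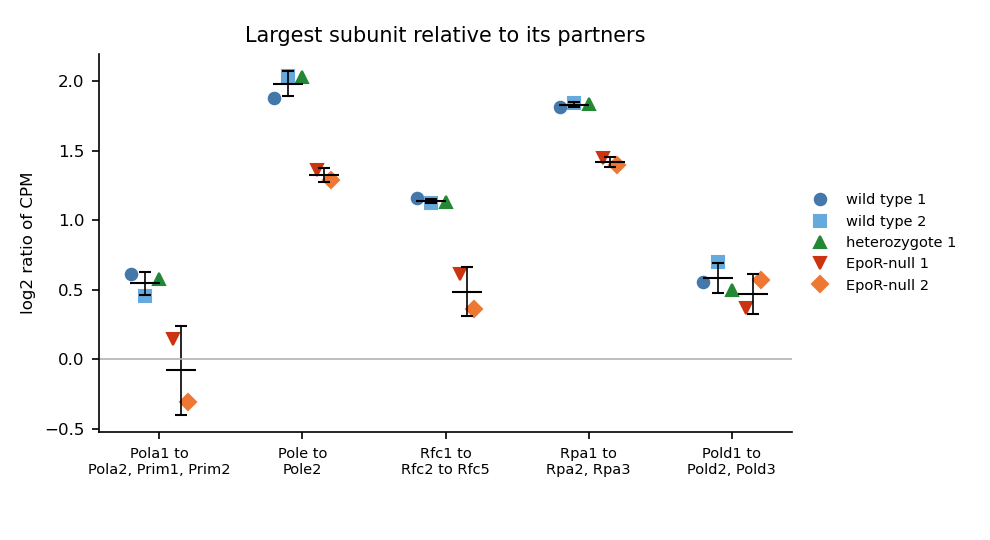
Log2 ratio of the CPM of a large subunit to the mean of its partners in each of the 5 samples; black bars are the mean and SD of each group (3 controls, 2 EpoR-null). For Pola1, Pole, Rfc1 and Rpa1 the EpoR-null points lie below all control points, and for Pold1 the groups overlap. The ratios are not adjusted for transcript length and GC content; with that adjustment the difference was -0.01 for Pole and 0.13 for Rpa1.

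Large subunits have long transcripts, and fold change followed transcript length in these samples. Across the 41 members, Spearman's rho between the log2 fold change and the length of the longest annotated transcript was -0.70, and across the 12586 tested genes with a length it was -0.63, a description over genes that share the same 5 libraries. The called genes Pola1, Pole and Rfc1 have transcripts of 5346, 7163 and 4751 bases, and Rpa3, at the other end, of 682 bases. Members with a negative fold change had a median length of 4355 bases and those with a positive one 2607.5 bases. With all genes sorted into 4 length classes of about equal size, 19.2% of the longest class, 4947 bases and up, were called lower, and 2 of its 5 members were. In the class below, from 3495 bases, 1.75% of all genes and 1 of 11 members were called lower, and in the shorter classes none of 14 and none of 11 members. Rfc2 and Gins2 departed from the trend, with longest annotated transcripts of 4995 and 3900 bases and log2 fold changes of 0.33 each, and the transcript expressed in these samples may be shorter than the longest annotated. The trend was present in both EpoR-null samples, with rho of -0.37 and -0.66 between the length and the log2 difference from the control mean. It was 0.20, -0.18 and 0.06 in the controls. The controls form that mean and their differences cancel, so their rho is not a like measure to that of the EpoR-null samples. When each sample's trend on length and GC content was removed by offsets, 0 of the 41 members were called by the likelihood-ratio test, against 1.36% of all genes, and without the offsets that test called the same number of members as the exact test, 3. The log2 fold changes with offsets were -0.24 for Pola1, -0.12 for Pole and -0.24 for Rfc1 (FDR 0.877, 0.999 and 0.974). Of the 6 members above all controls, Orc6 was at 0.02 with the offsets, Gmnn at -0.12, Gins4 at -0.13, Rpa2 at 0.06 and Rpa3 at 0.09. Rfc2 was at 0.50 (likelihood-ratio test FDR 0.481).

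**Figure D5:**
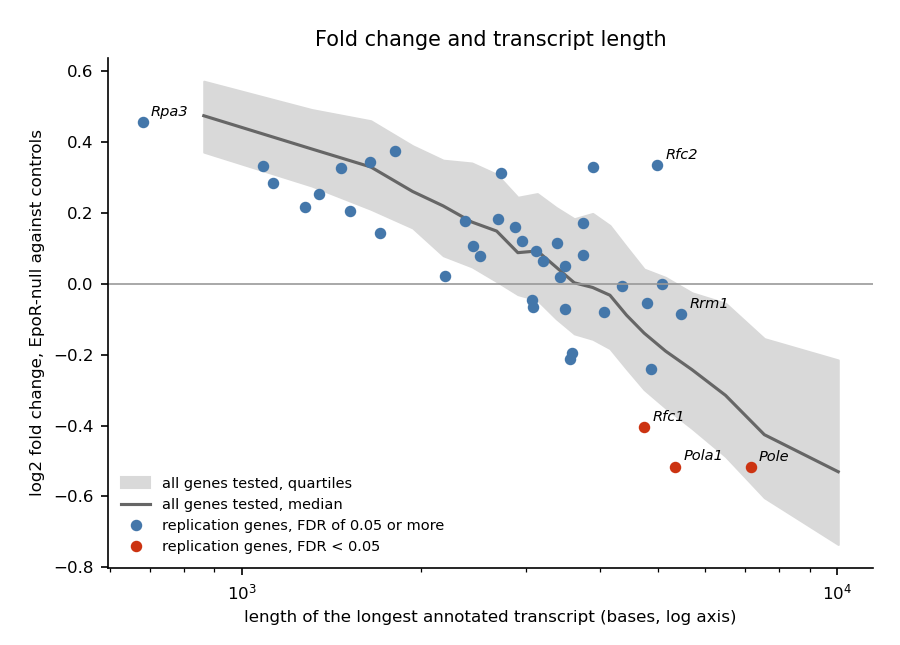
Log2 fold change, EpoR-null against controls, of the 41 genes (points) against the length of the longest annotated transcript on a log axis; the line and band are the median and quartiles of all tested genes in bins of length. Most points lie near the band, from Rpa3 at 682 bases and 0.46 to Pole at 7163 bases and -0.52, and Rfc2 lies above it.

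Other genes of the same process were read from a list of 37 further replication genes, all tested, of which 4 fell and none rose (10.8%, against 5.49% of all genes called lower). These were 5730590G19Rik, the symbol under which the tables list Ticrr, at -0.53 (SE 0.13, FDR 0.00199), Topbp1 at -0.45 (SE 0.13, FDR 0.0214), Clspn at -0.48 (SE 0.15, FDR 0.0279) and Supt16h at -0.41 (SE 0.13, FDR 0.0389). Ticrr and Topbp1 act with the kinases that fire origins, Clspn carries the checkpoint signal at stalled forks, and Supt16h is a subunit of the histone chaperone FACT. None of the 4 was called once the trend on length and GC content was removed, at -0.15, -0.22, -0.31 and -0.26 in the same order (FDR 0.999, 0.967, 0.663 and 0.848). The median log2 fold change of the list was -0.01, with 18 genes positive and 19 negative. EpoR-null 2 was above EpoR-null 1 in 29 of the 37. Of 18 E2F and S-phase entry genes, which include the regulators of the members, 1 was called lower (5.56%, against 5.49% of all genes). This was E2f7, an atypical E2F that represses S-phase genes. It was at 78.4, 83.9 and 82.9 CPM in the controls and at 60.5 and 63.1 CPM in the EpoR-null samples, a log2 fold change of -0.40 (SE 0.13, FDR 0.041), which was -0.18 with the offsets (FDR 0.999). The median of that list was -0.21. Without wild type 1, wild type 2 or the heterozygote 0 of the 37 and 0 of the 18 genes were called. Those fits called 115, 313 and 253 genes in all, in the same order.

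Genes of G2 and mitosis were read for comparison with the S-phase genes. Of 30 such genes 4 fell and none rose (13.3%, against 5.49% of all genes called lower). They were the centromere proteins Cenpe at -0.74 (SE 0.23) and Cenpf at -0.72 (SE 0.20), the spindle protein Hmmr at -0.55 (SE 0.14) and the cytokinesis factor Ect2 at -0.53 (SE 0.16), at exact test FDR of 0.0311, 0.0119, 0.00278 and 0.0231. With the length and GC offsets Hmmr alone was still called, at -0.49 (FDR 0.0329), while Cenpe went to -0.29 (FDR 0.669), Cenpf to -0.11 (FDR 0.999) and Ect2 to -0.43 (FDR 0.141). The median of the list was -0.10, and EpoR-null 2 was above EpoR-null 1 in 14 of 30 genes, against 39 of 41 of the replication genes. In the median gene of the mitotic list EpoR-null 1 and EpoR-null 2 stood at -0.14 and -0.18 relative to the controls on the log2 scale. The count of 4 became 0 without wild type 1 or the heterozygote and 2 without wild type 2. Those fits called 115, 253 and 313 genes in all, in the same order. Of the neural progenitor markers 1 of 10 was called lower (10%, against 5.49% of all genes). This was Msi1, an RNA-binding protein of dividing progenitors, at -0.51 (SE 0.14, FDR 0.00712), and at -0.67 with the offsets (FDR 0.00416). Over the 10 markers 6 log2 fold changes were negative and 4 positive, with a median of -0.14.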

How the data were processed

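Neural tube RNA of 5 samples was analysed, grouped by the genotype in the sample labels. The authors deposited 1 table of raw read counts per gene and sample, without normalization. The submitters' processing notes name Trimmomatic 0.32, TopHat2 2.1.0, HTSeq 0.6.1 and build mm9, while the study's methods name hg19 for RNA-seq. The strand setting is not given in the sources used here. HTSeq drops reads that match several places, so members with near-identical copies would be undercounted. Summary lines were not used as genes.

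The tests ran under R 4.3.3 and used edgeR 4.0.16 (TMM, tagwise dispersions, exactTest), limma 3.58.1 and DESeq2 1.42.0. Genes above 1 CPM in at least 2 samples were tested, EpoR-null against the 3 controls, and calls had an FDR under 0.05 after Benjamini-Hochberg adjustment over all of them. Standard errors and 95% intervals come from the negative binomial information with the tagwise dispersion taken as known, so they leave out its own uncertainty. Differences between single samples used log2 of CPM plus 0.5. Gene positions, transcript length and GC content came from GENCODE M21 on GRCm38, matched by symbol, for 99.1% of tested genes and all members. No 2 libraries agreed within sampling noise, with a chi-square per degree of freedom of at least 11.9 between any pair. The exact, quasi-likelihood, likelihood-ratio and DESeq2 fits, the replicate block and the likelihood-ratio fit with offsets were run on simulated counts. The planted changes were larger than the fold changes of the members. No trend on length or GC content was simulated, so removal of that trend was not tested. The other scalings, the other filters, offsets with the block and the leave-out fits were not simulated.

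Values per sample are given for every called member and, in each of 10 roles, for the member with the lowest p and that with the highest mean CPM. Called genes of the other lists are named, at most 5 per list. The members and lists were chosen with earlier results of these data known. Alternatives were the quasi-likelihood F-test, a replicate block, DESeq2, 2 other scalings, 2 other filters, stricter thresholds, length and GC offsets (loess span 0.5), and leaving out each sample. The quasi-likelihood F-test at an FDR of 0.1, the subunit ratios, the reading of Xist and the lists in the closing section were chosen after seeing the data.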

Additional observations from a re-analysis of the deposited data

How the results depend on the processing

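Replacing the exact test by the quasi-likelihood F-test left 0 calls among the members, the other replication genes, the E2F genes, the mitotic genes and all genes. DESeq2 called 4 members, 1 of them higher (Rpa3), with 7 other replication, 5 E2F, 12 mitotic and 1737 genes in all. Length and GC offsets gave 0 members, 0 other replication, 0 E2F and 1 mitotic gene and 171 genes in all, and offsets with the replicate block gave 0 for each of these. The stricter thresholds left 2 members, 1 other replication, 0 E2F and 2 mitotic genes and 606 in all, and library size alone as the scaling gave 2 E2F genes. With the replicate number as a block in the quasi-likelihood F-test, 1 member (Pola1) and 695 genes were called. The labels number the wild type and EpoR-null samples 1 and 2 and the heterozygote 1. With 2 such pairs the main test took the numbers as names only, and whether they mark a pairing was not tested. The differences between numbers in wild type and EpoR-null correlated at 0.427 over all genes and 0.795 over the members. Leaving out each sample in turn gave 0 to 18 members called, 0 to 6 lower and 0 to 16 higher, 0 to 16 other replication, 0 to 8 E2F, 0 to 15 mitotic and 115 to 3778 genes in all. The median log2 fold change of the members was 0.0400 with the block, 0.0425 by library size alone, -0.0471 with the offsets, -0.0906 with offsets and block, and -0.15 to 0.28 with a sample left out, lowest without EpoR-null 2 and highest without EpoR-null 1. Other scalings and filters moved no member across the threshold. No called member changed sign in any of these, while values that were not called changed sign in 20 members under the offsets and in 18 without EpoR-null 2. The cause of these shifts was not tested. Each member had at least 644 reads in every sample. Where a group is left with 1 sample, that sample is assumed to vary like the others.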

Other observations

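Some neighbouring gene groups were picked after their values were seen, so their shares of called genes cannot be ranked against that of the replication list. The shares were 5 of 13 (38.5%) and 3 of 10 (30%), all lower, against 5.49% of all genes called lower. Among 13 genes of cohesin and its loading, the ring that holds sister chromatids together behind the fork, 5 fell and none rose. Pds5a, which regulates cohesin on chromatin, had a log2 fold change of -1.07 (SE 0.22, exact test FDR 0.000231). Wapal, the cohesin release factor, was at 143, 127 and 144 CPM in the controls and at 89.8 and 76.5 CPM in the EpoR-null samples, a log2 fold change of -0.73 (SE 0.15, FDR 0.000235). The loader Nipbl (-0.998), Pds5b (-0.52) and Stag1 (-0.52) were the other called genes. With the length and GC offsets Pds5a was still called, at -0.56 (FDR 0.0145), and the other 4 were not, at -0.35 for Wapal (FDR 0.431), -0.47 for Nipbl (FDR 0.112), -0.04 for Pds5b (FDR 0.999) and -0.17 for Stag1 (FDR 0.999). In contrast to the replication genes, EpoR-null 2 was above EpoR-null 1 in 1 of the 13. The median transcript length of these genes was 5369 bases, against 3128 for the replication genes. In the length class from 4947 bases up, 19.2% of all genes were called lower.

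Translesion and repair polymerases, which copy past damaged bases, were listed in the same way, and 3 of the 10 tested fell. They were Rev1 (-0.65, SE 0.17, FDR 0.00606), the scaffold of translesion synthesis, Rev3l (-0.70, SE 0.22, FDR 0.0357), the catalytic subunit of polymerase zeta, and Polq (-0.80, SE 0.21, FDR 0.00608), which joins broken ends. With the offsets Rev1 was still called, at -0.58 (FDR 0.0353), while Rev3l went to -0.09 (FDR 0.999) and Polq to -0.29 (FDR 0.841), and their longest transcripts have 10789 and 8628 bases. Mad2l2, the small partner of Rev3l, was at 24.9, 27.3 and 23.9 CPM in the controls and at 29.8 and 41.4 CPM in the EpoR-null samples and did not pass the test (0.49, SE 0.22, FDR 0.175). All of these calls are among the 7.31% of all genes called.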
